A study of Mus musculus with 6 samples.

Results

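The endoplasmic reticulum (ER) genes described here are 33 genes for ER chaperones, calcium-binding proteins of the secretory pathway, and the sensors and targets of the unfolded protein response. They were chosen by symbol, and 33 of the 48709 rows of the gene table carried one of the 33 symbols. RNA was sequenced from resting, untreated peritoneal macrophages of C57BL/6 mice, taken by lavage of the peritoneal cavity and sorted as cells positive for both F4/80 and CD11b. The 2 groups are wild-type and Zeb1 (+/-), the second heterozygous for Zeb1, which encodes a transcription factor that binds E-box sequences. The labels do not describe the Zeb1 allele further. Each group has 3 libraries, and each library is a pool of 2 mice aged 6 to 8 weeks. Values in a series of 3 are in the order of replicates 1, 2 and 3, and CPM is counts per 1000000 counts of the library, after scaling of the library sizes.

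Proteins that enter the ER are folded there by chaperones of the Hsp70 and Hsp90 families, by the lectins calnexin and calreticulin, which hold newly made glycoproteins, and by disulphide isomerases. When unfolded protein builds up, the membrane sensors IRE1, PERK and ATF6 are released and activate the unfolded protein response: IRE1 splices Xbp1 mRNA, PERK slows translation and favours synthesis of ATF4, and ATF6 is cut to an active transcription factor. ATF6 and spliced XBP1 bind ER stress response elements (ERSE) in the promoters of chaperone genes. Macrophages depend on this machinery to make secreted proteins and the many receptors and lysosomal enzymes of a phagocyte.

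Promoter sequences of the RefSeq genes on GRCm38.p6, from 250 bases before to 50 bases after the annotated start, were matched by symbol for 28 of the 33 genes. Asph, Atf6, Hyou1, Manf and Rcn1 were not matched. The ERSE, searched on both strands as CCAAT and CCACG with any 9 bases between them, was found in 8 of these 28 genes (28.6%), against 37 of all 27025 genes with a promoter (0.137%). These were Calr, Canx, Creld2, Dnajc3, Hsp90b1, Hspa5, Pdia6 and Syvn1, and Hsp90b1 held it at 2 places. ERSE-II, searched as ATTGG and CCACG with any 1 base between them, was found in Dnajb11 and Herpud1 and in 12 of all 27025 genes (0.0444%). These motifs can overlap each other in CCACG. The stretches before the start are printed here with 20 bases on each side. The genes were chosen by function, and the ERSE is known from chaperone promoters, so its high share among them is not an independent result. Capitals mark the fixed bases of the ERSE and the whole of ERSE-II, each stretch reads along the strand of its gene, and an ERSE on the other strand reads CGTGG before ATTGG.
Hspa5: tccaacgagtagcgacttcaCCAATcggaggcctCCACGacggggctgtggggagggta
Pdia6: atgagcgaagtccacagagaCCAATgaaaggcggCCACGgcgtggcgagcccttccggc
Dnajc3: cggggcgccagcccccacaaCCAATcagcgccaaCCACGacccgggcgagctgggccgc
Canx: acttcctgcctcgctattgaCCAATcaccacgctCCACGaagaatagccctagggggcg
Syvn1: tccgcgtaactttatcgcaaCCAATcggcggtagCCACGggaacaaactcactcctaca
Hsp90b1: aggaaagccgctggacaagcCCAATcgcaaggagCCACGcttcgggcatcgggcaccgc
Hsp90b1: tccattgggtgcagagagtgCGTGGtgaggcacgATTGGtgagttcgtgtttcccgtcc
Calr: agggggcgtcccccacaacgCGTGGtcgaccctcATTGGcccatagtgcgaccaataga
Creld2: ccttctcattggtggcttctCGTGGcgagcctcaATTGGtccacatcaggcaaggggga
Herpud1: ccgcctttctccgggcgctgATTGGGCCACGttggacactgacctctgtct

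The stretches lie on the plus strand at chr2:34772005-34772063 for Hspa5, chr12:17266471-17266529 for Pdia6, chr14:118937807-118937865 for Dnajc3, chr19:6046512-6046570 for Syvn1, chr15:88819500-88819558 for Creld2 and chr8:94386357-94386407 for Herpud1. Those of Canx (chr11:50325780-50325838), Calr (chr8:84847055-84847113) and Hsp90b1 (chr10:86705618-86705676 and chr10:86705513-86705571) lie on the minus strand. The ERSE-II of Dnajb11 lies within the first bases after the start and is not printed. The unfolded protein response element TGACGTGG, whose reverse also holds CCACG, and the amino acid response element TGATGNAAT, the second bound by ATF4 with a C/EBP partner, were found in 0 of the 28 genes, and in 0.714% and 1.08% of all genes with a promoter. The E-box CACCTG, which ZEB1 can bind, was found in 6 of the 28 (21.4%: Atf4, Dnajb9, Eif2ak3, Hsp90b1, Syvn1 and Xbp1), against 22.6% of all genes. Rcn3, the member that fell in Zeb1 (+/-) macrophages, held none of the 5 motifs in its window. Its 100 bases before the start (chr7:45092214-45092313, minus strand) are shown for that reason, with no capitals since no motif matched.
Rcn3: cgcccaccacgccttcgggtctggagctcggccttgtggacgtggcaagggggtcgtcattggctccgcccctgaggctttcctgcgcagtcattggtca

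The libraries held 17859872 to 42165006 counts, so that 1 CPM stood for 17.9 to 42.3 counts. Zeb1 itself was at 5.44, 7.56 and 7.22 CPM in wild-type and 3.85, 3.45 and 3.62 CPM in Zeb1 (+/-) macrophages, with the groups apart and an edgeR adjusted p of 0.0522. Of the wild-type libraries 2 stood apart in small structural RNA (snRNA, rRNA, ribozymes and miscellaneous RNA), at 4.14 and 8.69 CPM in replicates 1 and 2 against 42.2 to 45.5 CPM in the other 4 libraries. Genes of macrophages were present throughout: Adgre1, which encodes F4/80, was at 2159 to 2646 CPM, and Itgam, which encodes CD11b, at 4688 to 5362 CPM. Summed over 13 markers, B cells were at 81.3, 76.3 and 157 CPM in the wild-type libraries and 60.3, 56.3 and 46.2 CPM in the Zeb1 (+/-) libraries, and 13 markers of fibroblasts and mesothelium together were at 0.637 to 2.41 CPM, with Pdgfra at 0 in every library.

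Together the 33 genes made up 1.01% of the counts of a library, averaged over the 6. Per length, as CPM per kb of annotated exon, the most abundant in wild-type macrophages was Calr, the calcium-binding lectin calreticulin, at 373 ± 42.5 (mean ± SD, n = 3). It was followed by the disulphide isomerase P4hb at 294 ± 44.4, the Hsp70 chaperone Hspa5 (BiP) at 293 ± 80.2, the isomerase Pdia3 at 291 ± 34.7 and the Hsp90 chaperone Hsp90b1 (GRP94) at 269 ± 39.2 CPM per kb. These 4 lay within each other's spread. Canx, calnexin, came next at 128 ± 8.53, followed by Pdia6 at 97.7 ± 15.6 and Sdf2l1, an ER partner of the Hsp40 proteins, at 90.0 ± 20.6. The transcription factor genes Xbp1 and Atf4 were at 78.3 ± 5.34 and 57.0 ± 5.81 CPM per kb. The 3 sensors were lower, with Ern1 (IRE1) at 21.4 ± 4.67, Atf6 at 10.9 ± 0.397 and Eif2ak3 (PERK) at 9.68 ± 1.07. Ddit3, the stress factor CHOP, was at 7.67 ± 1.28, and Trib3, a pseudokinase induced by ATF4 and CHOP, was last at 0.142 ± 0.0679, with 5 to 19 counts in a library. The length of Asph, 16.1 kb, pools exons of several distinct proteins of that locus, so its level per length is not that of any one of them.

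**Figure D1:**
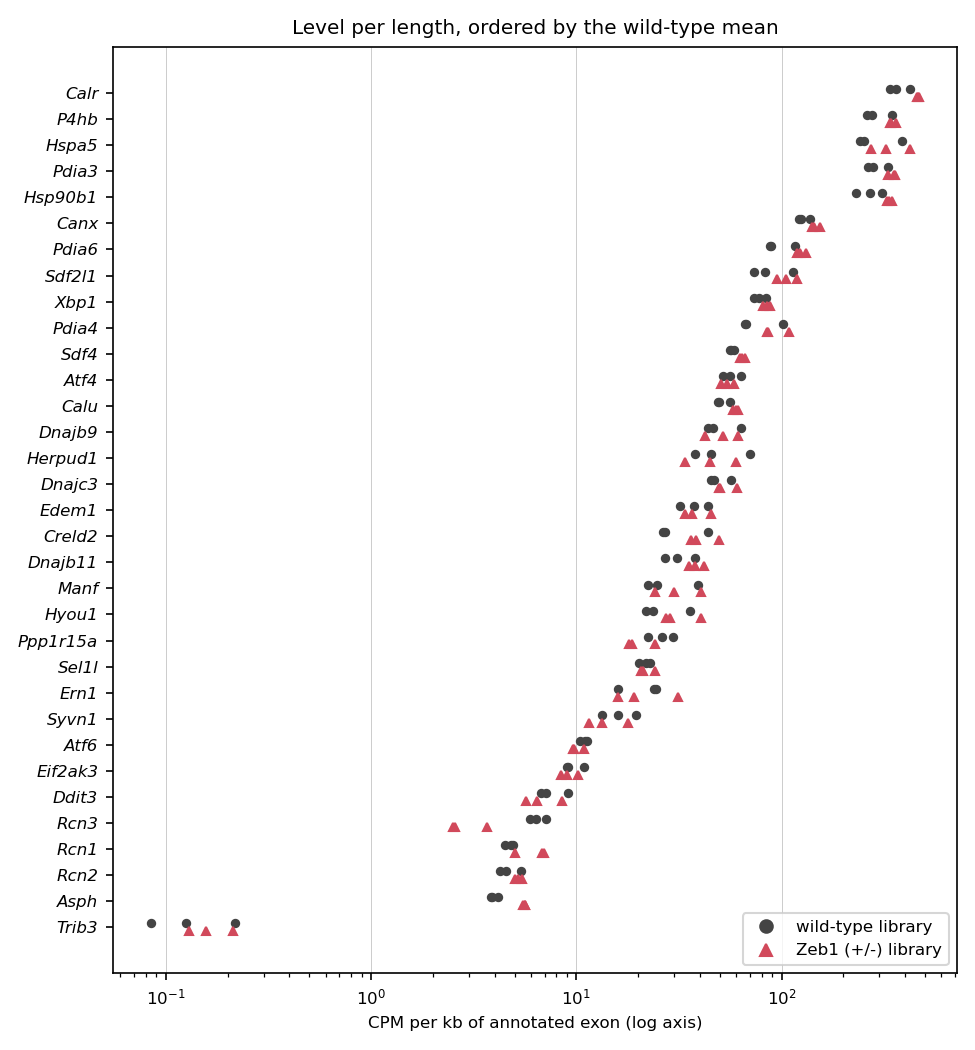
Level per length of the 33 genes (CPM per kb of annotated exon, log axis), ordered by the wild-type mean, with 1 point per library (circles wild-type, triangles Zeb1 (+/-)). Calr stands first at 373 ± 42.5 (mean ± SD) and Trib3 last at 0.142 ± 0.0679 CPM per kb in wild-type.

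Between genotypes, 2 of the 33 genes changed. Rcn3, which encodes a calcium-binding reticulocalbin of the ER lumen, fell, from 11.1 to 5.01 CPM on average, and Asph, which encodes an ER aspartyl hydroxylase and the calcium-binding proteins junctate and junctin, rose from 63.7 to 89.8 CPM. By the edgeR quasi-likelihood test with Benjamini-Hochberg adjustment over all 12940 tested genes, 1 member was higher and 1 lower, against 0.155% and 0.433% of all tested genes (0.587% in all). At an unadjusted p under 0.05, 10 members were higher and 2 lower, against 6.3% and 8.26%. DESeq2 called 3 higher and 1 lower, adding Calr and Pdia6, and limma-voom called the same number as edgeR. A term that sets wild-type replicates 1 and 2, low in small structural RNA, apart was also fitted. It leaves wild-type replicate 3 as the only control, so its calls are not read. All 33 members passed the filter on low counts. The groups did not overlap for 9 members that were higher in Zeb1 (+/-), against 9.6% of all tested genes, and for 1 that was lower, against 10.3% (19.9% in either direction). All log2 fold changes set Zeb1 (+/-) over wild-type and are given ± SE. Their median was 0.18 over the members and −0.00038 over all tested genes. Of the 33 estimates 25 (75.8%) were above 0, against 49.9% of all tested genes. Among the 25 were all 15 chaperones and isomerases. Bulk libraries cannot tell fewer cells of one type from less RNA per cell.

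**Figure D2:**
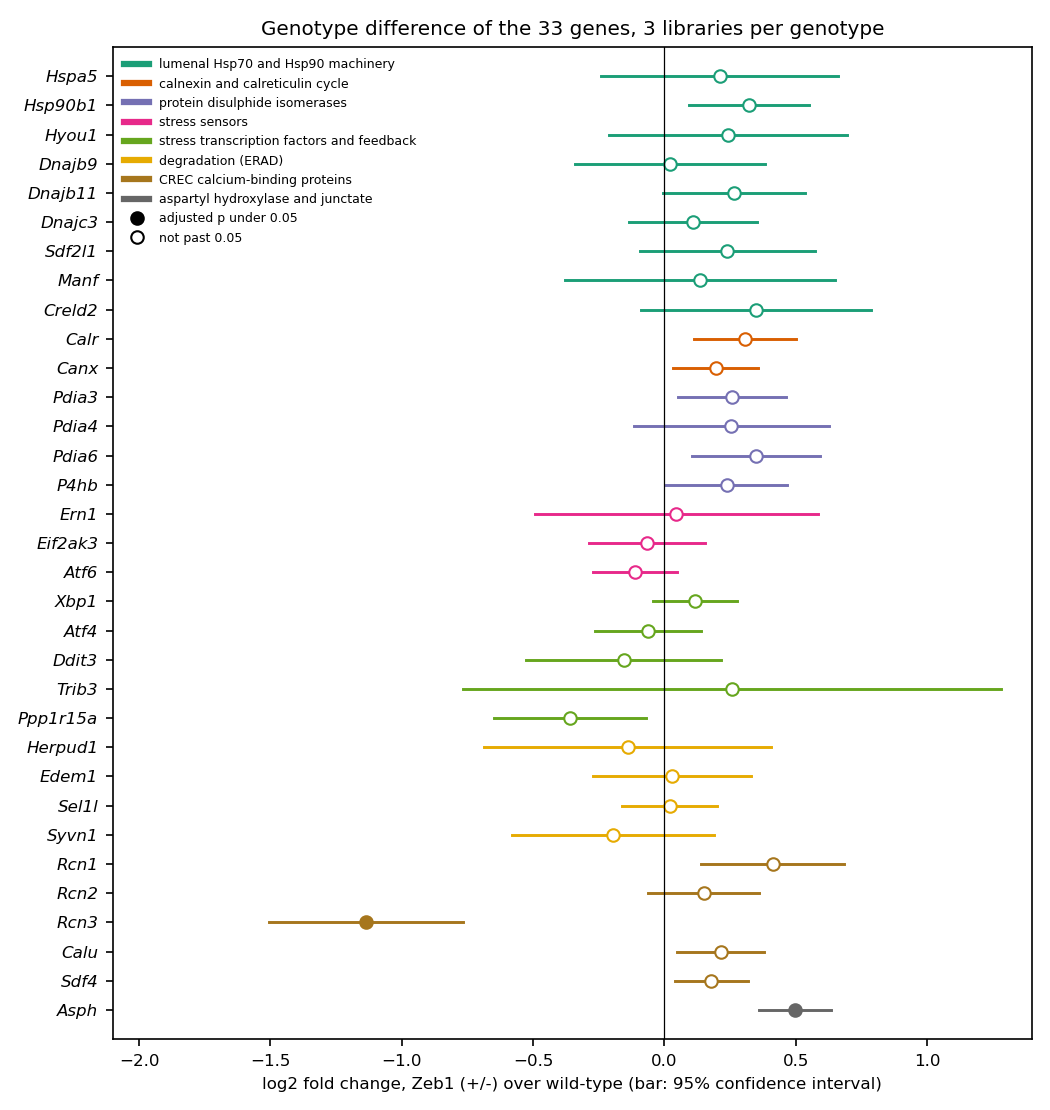
Log2 fold change of each gene (point) with its 95% confidence interval (bar), grouped by role in colour; filled points passed an adjusted p of 0.05. Rcn3 at −1.13 and Asph at 0.50 are the filled points, and the 15 chaperones and isomerases at the top lie above 0.

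Rcn3 (ENSMUSG00000019539.11, chr7:45082913-45092221, minus strand of GRCm38) was at 10.9, 10.2 and 12.3 CPM in wild-type cells, against 4.41, 4.30 and 6.33 CPM in Zeb1 (+/-) cells. The lowest wild-type library was above the highest Zeb1 (+/-) library. The groups had 11.1 ± 1.08 and 5.01 ± 1.14 CPM (mean ± SD over 3 libraries), and the log2 fold change was −1.13 ± 0.16 (SE; adjusted p = 0.0246), with a 95% confidence interval of −1.50 to −0.76. Leaving out wild-type replicate 2, Zeb1 (+/-) replicate 1 or Zeb1 (+/-) replicate 2 raised the adjusted p to 0.104, 0.0664 and 0.124, while the log2 fold change stayed between −1.34 and −1.01 whichever library was omitted. The fit with the term that sets wild-type replicates 1 and 2 apart, which leaves wild-type replicate 3 as the only control, gave −1.28. No 50-base stretch of its transcripts occurs in another gene, but 290 exonic bases overlap the antisense gene Gm45669. No row of the deposited counts carries that symbol, and whether the counting used strand is not given in the sources used here. Fibroblast and mesothelial markers, 13 genes, summed to at most 2.41 CPM in a library, and the part of such cells in the Rcn3 counts was not tested. Most markers of small peritoneal macrophages, the minor monocyte-derived population of the cavity, moved the same way as Rcn3. Of the 9 markers 6 fell past the threshold, and 8 estimates were below 0 and 1 above, that of Clec10a at 0.14. The 9 summed to 2168, 2189 and 2312 CPM in the wild-type libraries and 1372, 1368 and 1525 CPM in the Zeb1 (+/-) libraries. Retnla (691 to 1178 CPM) held the largest part of this sum. The B cell markers were also lower in sum, with 0 of 12 tested past the threshold, 11 at an unadjusted p under 0.05 and 11 whose groups did not overlap. Their part in the fall of Rcn3 was not tested.

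The other members of the CREC family, named for their reticulocalbin and calumenin relatives, share calcium-binding EF hands and act along the secretory pathway. Their estimates, unlike that of Rcn3, were above 0. Rcn1 was at 15.7, 15.4 and 14.3 CPM in the wild-type libraries and 16.1, 22.3 and 21.7 CPM in the Zeb1 (+/-) libraries, a log2 fold change of 0.41 ± 0.12 (SE; adjusted p = 0.174), with the groups apart but Zeb1 (+/-) replicate 1 close to the wild-type range. Calu, calumenin, was at 262, 228 and 231 CPM in wild-type and 281, 269 and 287 CPM in Zeb1 (+/-) macrophages (log2 fold change 0.21 ± 0.073, adjusted p = 0.234). Sdf4, a calcium-binding protein of the Golgi lumen also called Cab45, was at 359, 345 and 342 CPM in wild-type cells, against 383, 407 and 394 CPM in Zeb1 (+/-) cells (log2 fold change 0.18 ± 0.061, adjusted p = 0.234). In both the groups did not overlap. Rcn2 was at 21.5, 20.2 and 25.5 CPM in the wild-type libraries and 24.7, 25.7 and 23.8 CPM in the Zeb1 (+/-) libraries, with overlapping groups and an estimate of 0.15 ± 0.094 (SE; adjusted p = 0.497). Of the 5 CREC genes 1 fell, 0 rose and 4 did not pass. In wild-type macrophages Rcn3, Rcn1 and Rcn2 were at 6.46 ± 0.626, 4.74 ± 0.218 and 4.72 ± 0.587 CPM per kb. In Zeb1 (+/-) the level of Rcn3, 2.92 ± 0.666 CPM per kb, was below those of Rcn1 and Rcn2 (6.26 ± 1.07 and 5.22 ± 0.204). Per kb, Rcn3 was thus the highest of the 3 reticulocalbins in wild-type and the lowest in Zeb1 (+/-). This change of place rests on division by annotated exon lengths of 1.717, 3.196 and 4.745 kb for Rcn3, Rcn1 and Rcn2. In CPM, without that division, Rcn3 was the lowest of the 3 on average in both genotypes. Calu and Sdf4, at 51.6 ± 4.05 and 57.0 ± 1.48 CPM per kb in wild-type, were the abundant members of the family in both genotypes.

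Asph (ENSMUSG00000028207.18, chr4:9448069-9669344, minus strand of GRCm38) was at 61.8, 66.6 and 62.6 CPM in wild-type and 90.6, 90.6 and 88.2 CPM in Zeb1 (+/-) macrophages. The Zeb1 (+/-) libraries lay close together and well clear of the highest wild-type library, and the p-value was the smallest of the 33 genes. The group values were 63.7 ± 2.61 and 89.8 ± 1.38 CPM (mean ± SD over 3 libraries) and the log2 fold change 0.50 ± 0.061 (SE; adjusted p = 0.0185), with a 95% confidence interval of 0.36 to 0.63. Omitting wild-type replicate 2 or Zeb1 (+/-) replicate 2 raised the adjusted p to 0.0785 and 0.0999, with log2 fold changes of 0.47 to 0.53 over the 6 omissions. Under the term that leaves wild-type replicate 3 as the only control the estimate was 0.52. The counts are per gene, so the hydroxylase, junctate and junctin cannot be told apart. On the opposite strand 2302 exonic bases overlap Clvs1, which was at 0 to 0.0901 CPM. Markers of large peritoneal macrophages, the resident majority, summed to 27364, 26153 and 26475 CPM in the wild-type libraries and 31419, 30666 and 29265 CPM in the Zeb1 (+/-) libraries, higher in Zeb1 (+/-) as Asph was, with 0 of 9 past the threshold and 5 higher at an unadjusted p under 0.05. Prg4 (11042 to 15016 CPM) and Alox15 (7772 to 9452 CPM) held most of this sum. Of the 9 markers, 8 had an estimate above 0 and 1 below, and the groups of 5 were apart while those of 4 overlapped. The part of these markers in the rise of Asph was not tested.

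**Figure D3:**
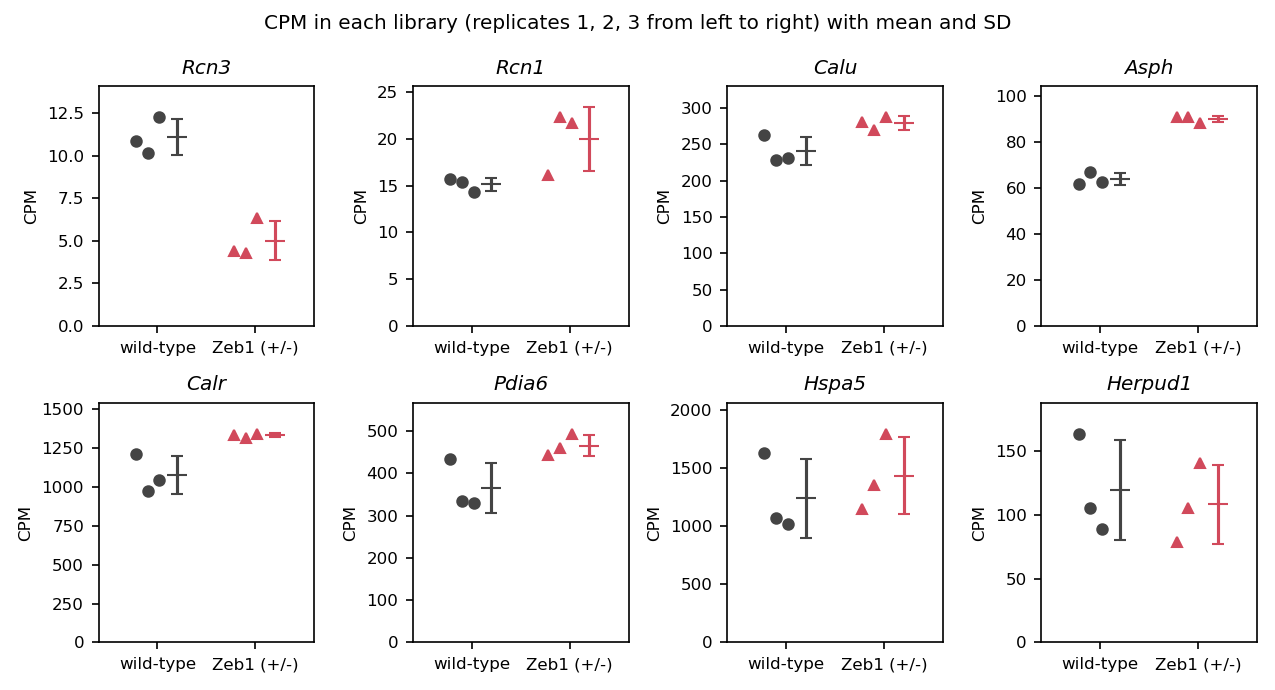
CPM of 8 genes in each library (circles wild-type, triangles Zeb1 (+/-), replicates 1 to 3 from left to right), with the mean and SD beside them; each axis starts at 0. Rcn3 and Asph show separated groups, Calr and Pdia6 a smaller offset that did not pass, and Hspa5 and Herpud1 a wide spread within each genotype, with ranges that overlap in part.

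Calreticulin and calnexin hold monoglucosylated glycoproteins while the isomerase Pdia3 forms their disulphide bonds, and these 3 genes were each higher in all Zeb1 (+/-) libraries than in any wild-type library without passing the adjusted threshold. Calr was at 1211, 973 and 1041 CPM in wild-type cells, against 1335, 1316 and 1341 CPM in Zeb1 (+/-) cells. Its log2 fold change was 0.31 ± 0.086 (SE; adjusted p = 0.159), with a 95% confidence interval of 0.11 to 0.50. The Zeb1 (+/-) libraries differed by a factor of 1.02 between highest and lowest, and the wild-type libraries by 1.24. Canx was at 644, 568 and 585 CPM in the wild-type libraries and 674, 664 and 719 CPM in the Zeb1 (+/-) libraries, a log2 fold change of 0.19 ± 0.072 (SE; adjusted p = 0.27). Pdia3 was at 1035, 826 and 878 CPM in wild-type and 1040.2, 1123 and 1111 CPM in Zeb1 (+/-) macrophages (log2 fold change 0.26 ± 0.090, adjusted p = 0.247). In each of these genes the highest wild-type library was replicate 1. For Canx and Pdia3 it stood close to the Zeb1 (+/-) range, and for Calr it stood further below.

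Among the other disulphide isomerases, Pdia6 had the largest estimate. It was at 433, 334 and 330.1 CPM in wild-type cells, against 444, 461 and 494 CPM in Zeb1 (+/-) cells, with the groups apart and a log2 fold change of 0.35 ± 0.11 (SE; adjusted p = 0.193). Without wild-type replicate 1, its highest wild-type library, the log2 fold change was 0.49 and the adjusted p 0.044. Over all 6 omissions of a library the log2 fold change of Pdia6 ran from 0.28 to 0.49. Its edgeR adjusted p ran from 0.044 to 0.52. P4hb, the isomerase that is also a subunit of prolyl hydroxylase, was at 986, 788 and 749 CPM in the wild-type libraries and 971, 975 and 1029 CPM in the Zeb1 (+/-) libraries (log2 fold change 0.24 ± 0.10, adjusted p = 0.333). Its groups overlapped only through wild-type replicate 1. Pdia4 (ERp72) was at 243, 159 and 161 CPM in wild-type and 205, 207 and 260.0 CPM in Zeb1 (+/-) macrophages, with overlapping groups and an estimate of 0.26 ± 0.17 (SE; adjusted p = 0.508). None of the 4 isomerases passed, and 2 had groups that did not overlap.

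The lumenal Hsp70 and Hsp90 machinery comprises the chaperones Hspa5, Hyou1 and Hsp90b1, the Hsp40-type co-chaperones Dnajb9, Dnajb11 and Dnajc3, and the small ER proteins Sdf2l1, Manf and Creld2. Of these 9 genes 0 passed, all 9 estimates were above 0, and Hsp90b1 alone had groups that did not overlap. Hsp90b1, which folds integrins and Toll-like receptors, was at 1245, 929 and 1083 CPM in wild-type cells, against 1348, 1322 and 1397 CPM in Zeb1 (+/-) cells (log2 fold change 0.32 ± 0.10, adjusted p = 0.202). Hspa5 was at 1630.2, 1071 and 1018 CPM in the wild-type libraries and 1149.5, 1358 and 1796 CPM in the Zeb1 (+/-) libraries, and its log2 fold change of 0.21 ± 0.20 (SE; adjusted p = 0.668) had a 95% confidence interval of −0.24 to 0.66. Wild-type replicate 1 was above Zeb1 (+/-) replicates 1 and 2, and the highest and lowest libraries of each genotype differed by factors of 1.60 and 1.56. With the highest wild-type library, replicate 1, omitted the estimate was 0.46, and with the highest Zeb1 (+/-) library, replicate 3, omitted it was 0.019. Hyou1 (GRP170), which exchanges nucleotide on Hspa5, was at 259, 172 and 158 CPM in wild-type and 197, 206 and 294 CPM in Zeb1 (+/-) macrophages (log2 fold change 0.24 ± 0.20, adjusted p = 0.612). The interval of this estimate, −0.21 to 0.69, holds both no difference and a log2 difference of 0.69. Creld2, an isomerase-like stress protein, was at 59.8, 36.3 and 36.8 CPM in wild-type cells, against 49.5, 52.1 and 67.9 CPM in Zeb1 (+/-) cells (log2 fold change 0.35 ± 0.19, adjusted p = 0.444), and Manf, a secreted partner of Hspa5, at 138, 87.0 and 78.9 CPM in the wild-type libraries and 85.3, 105 and 144 CPM in the Zeb1 (+/-) libraries (log2 fold change 0.14 ± 0.23, adjusted p = 0.816). Both were high in wild-type replicate 1 and in Zeb1 (+/-) replicate 3. Sdf2l1 was at 125, 92.5 and 81.4 CPM in wild-type and 106, 116 and 132 CPM in Zeb1 (+/-) macrophages, a log2 fold change of 0.24. The co-chaperones Dnajb11, Dnajc3 and Dnajb9 had log2 fold changes of 0.27, 0.11 and 0.022, with adjusted p from 0.347 to 0.96. Dnajb11 was at 123, 87.3 and 99.9 CPM in wild-type cells, against 115, 122 and 136 CPM in Zeb1 (+/-) cells, where wild-type replicate 1 stood inside the Zeb1 (+/-) range. Dnajc3, which also inhibits PERK, was at 291, 232 and 242 CPM in the wild-type libraries and 254, 258 and 312 CPM in the Zeb1 (+/-) libraries, and Dnajb9, which represses IRE1 through Hspa5, at 162, 119 and 111 CPM in wild-type and 108, 132 and 157 CPM in Zeb1 (+/-) macrophages. In both, the groups covered much of the same range.

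The sensors of the response gave no change past the threshold. Ern1, which encodes the kinase and nuclease IRE1, was at 131, 199 and 195 CPM in wild-type cells, against 255, 156 and 131 CPM in Zeb1 (+/-) cells. Zeb1 (+/-) replicate 1 was the highest of all libraries, and wild-type replicate 1 and Zeb1 (+/-) replicate 3 were the lowest at almost the same level, so the groups overlapped (log2 fold change 0.045 ± 0.24, adjusted p = 0.946). Eif2ak3, which encodes the kinase PERK, was at 65.8, 55.2 and 54.1 CPM in the wild-type libraries and 51.0, 54.5 and 61.6 CPM in the Zeb1 (+/-) libraries (log2 fold change −0.067 ± 0.10, adjusted p = 0.79). Atf6, which encodes the membrane-bound transcription factor, was at 103, 102 and 96.6 CPM in wild-type and 88.5, 90.2 and 101 CPM in Zeb1 (+/-) macrophages, with a log2 fold change of −0.11 ± 0.071 (SE; adjusted p = 0.503) and a 95% confidence interval of −0.27 to 0.050. This was one of the tighter estimates among the members.

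Of the 5 transcription factors and feedback genes downstream of the sensors, 0 passed. Xbp1, whose mRNA IRE1 splices, was at 272, 252 and 238 CPM in wild-type cells, against 265, 277 and 285 CPM in Zeb1 (+/-) cells (log2 fold change 0.12 ± 0.071, adjusted p = 0.485); gene counts do not show how much of it was spliced. Atf4 was at 149, 122 and 133 CPM in the wild-type libraries and 119.5, 128 and 139 CPM in the Zeb1 (+/-) libraries, with a log2 fold change of −0.062 ± 0.089 (SE; adjusted p = 0.79), and its translational control is likewise not visible in counts. Ddit3 was at 15.7, 12.2 and 11.6 CPM in wild-type and 9.71, 11.1 and 14.6 CPM in Zeb1 (+/-) macrophages (log2 fold change −0.15 ± 0.16, adjusted p = 0.705). Ppp1r15a, which encodes the phosphatase subunit GADD34 that restores translation after stress, was at 86.6, 66.0 and 77.1 CPM in wild-type cells, against 55.0, 53.2 and 70.8 CPM in Zeb1 (+/-) cells. It had the lowest estimate after Rcn3, −0.36 ± 0.13 (SE; adjusted p = 0.256), with a 95% confidence interval of −0.65 to −0.069 and groups that overlapped through wild-type replicate 2 and Zeb1 (+/-) replicate 3. Trib3 was at 0.180 to 0.462 CPM in all 6 libraries, with an estimate of 0.26 ± 0.45 (SE; adjusted p = 0.826) that these counts do not resolve.

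Genes of ER-associated degradation, which carries misfolded proteins to the proteasome, covered overlapping ranges in the 2 genotypes. Herpud1, a membrane component of the degradation complex and a strong target of the response, was at 163, 105 and 88.6 CPM in the wild-type libraries and 78.7, 105 and 140.3 CPM in the Zeb1 (+/-) libraries (log2 fold change −0.14 ± 0.24, adjusted p = 0.824). Syvn1, the ubiquitin ligase HRD1, was at 95.1, 77.4 and 64.8 CPM in wild-type and 56.0, 64.8 and 86.3 CPM in Zeb1 (+/-) macrophages (log2 fold change −0.20 ± 0.17, adjusted p = 0.631). Its partner Sel1l was at 195, 187 and 173 CPM in wild-type cells, against 177, 180.0 and 206 CPM in Zeb1 (+/-) cells, with a log2 fold change of 0.020 and a 95% confidence interval of −0.16 to 0.20. Edem1, a lectin that hands over trimmed glycoproteins, was at 284, 242 and 206 CPM in the wild-type libraries and 219, 235 and 292 CPM in the Zeb1 (+/-) libraries (log2 fold change 0.028 ± 0.13, adjusted p = 0.939). Of these 4 genes 0 passed and the groups of 4 overlapped.

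Within each genotype most members were highest in the same library. Wild-type replicate 1 was the highest wild-type library for 28 of the 33 genes (84.8%), against 33.9% of all tested genes, and Zeb1 (+/-) replicate 3 the highest of its genotype for 26 (78.8%), against 33.1%. Both held for 25 members (75.8%), against 15.6% of all tested genes. They held for all 9 genes of the lumenal Hsp70 and Hsp90 machinery and all 4 degradation genes. The exceptions were Pdia3, Rcn1, Sdf4, Ern1, Trib3, Rcn2, Rcn3 and Asph. Of these, Ern1, Trib3 and Asph had the reverse order, with these libraries the lowest of their genotype. The spread was widest in Herpud1, by factors of 1.84 among wild-type and 1.78 among Zeb1 (+/-) libraries, and in Manf (1.75 and 1.68), leaving aside Ern1 and the few counts of Trib3. It was narrow in Asph (1.08 and 1.03) and Sdf4 (1.05 and 1.06). The median factor over the 33 members was 1.31 in wild-type and 1.23 in Zeb1 (+/-), against 1.18 and 1.16 over all tested genes.

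**Figure D4:**
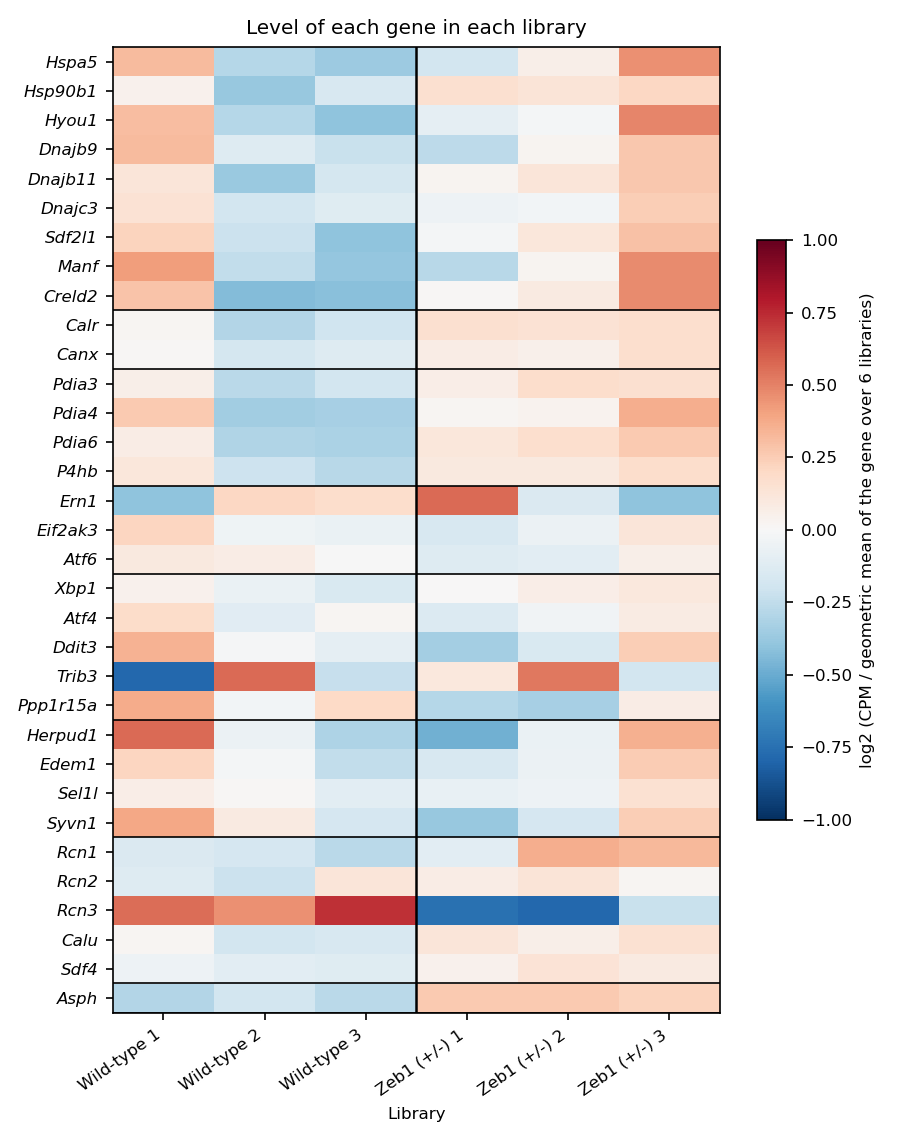
Level of each gene in each library as the log2 ratio of CPM to the gene's geometric mean over the 6 libraries; horizontal lines part the roles and the vertical line the genotypes. Wild-type replicate 1 and Zeb1 (+/-) replicate 3 are red for most chaperone and degradation genes, while Rcn3 and Asph split by genotype.

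The 10 members with an ERSE or ERSE-II all had wild-type replicate 1 and Zeb1 (+/-) replicate 3 as the highest library of their genotype. Among the 18 members with a promoter and neither motif, these libraries were highest for 14 and 13. The factor between the highest and lowest of the wild-type libraries ran from 1.13 to 1.84 with a median of 1.37 in the 10 genes, and from 1.05 to 2.56 with a median of 1.29 in the 18. Among Zeb1 (+/-) libraries the medians were 1.21 and 1.23. Of the 10 genes, Herpud1 had the largest factor in both genotypes. These ranges overlap, and no test was made of them.

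**Figure D5:**
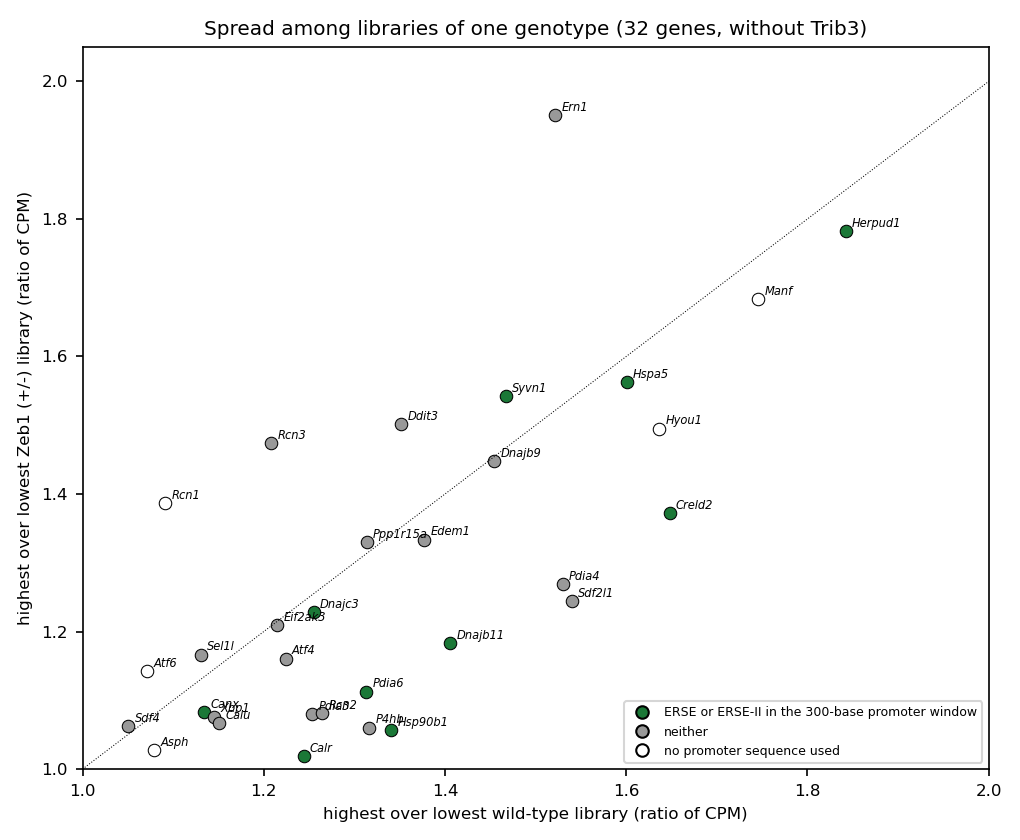
Ratio of the highest to the lowest library in wild-type (x axis) against the same ratio in Zeb1 (+/-) (y axis) for 32 genes, without Trib3 for its few counts; green points have an ERSE or ERSE-II in the promoter window, grey points neither, white points no promoter sequence used, and the dotted line marks equal ratios. Herpud1, Manf and Hspa5 lie far out along the line and Asph and Sdf4 near its origin.

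Other stress genes followed the same libraries in part. Wild-type replicate 1 and Zeb1 (+/-) replicate 3 were both highest in 7 of 23 tested integrated stress response genes (30.4%), against 15.6% of all tested genes. Of 7 core macrophage genes, which are not stress genes, 3 (42.9%) also had this order. The cytosolic heat shock genes, a list added after the pattern was seen, had wild-type replicate 1 and Zeb1 (+/-) replicate 3 highest in 7 of 7 genes and summed to 3294, 1937 and 1693 CPM in the wild-type libraries and 1770.1, 2232 and 3311 CPM in the Zeb1 (+/-) libraries. Hspa1b, the inducible cytosolic Hsp70, was at 89.7, 27.1 and 14.3 CPM in wild-type and 11.8, 11.6 and 50.6 CPM in Zeb1 (+/-) macrophages. The 8 immediate-early genes, likewise added, summed to 3045, 2921 and 2439.9 CPM in the wild-type libraries and 1927, 2446 and 3236 CPM in the Zeb1 (+/-) libraries, and both libraries were highest in 5 of the 8. None of these 15 genes passed between genotypes by edgeR, while 1 of them had an unadjusted p under 0.05. Wild-type replicates 1, 2 and 3 held 33358835, 28073386 and 18574049 counts, so that replicate 1 was the deepest of its genotype, and Zeb1 (+/-) replicates 1, 2 and 3 held 17859872, 42165006 and 33650529, with replicate 3 between the others. The part of depth and of these stress genes in the pattern of the members was not tested.

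Of 143 other genes of the ER and its stress response, in 8 lists, 142 were measured, 135 were tested and 0 passed by edgeR. At an unadjusted p under 0.05, 24 were higher and 4 lower in Zeb1 (+/-), where 6.3% and 8.26% of all tested genes were. DESeq2 called 2 higher and 1 lower, and limma-voom 0. The median log2 fold change was 0.085. Among 25 translocon and glycan transfer genes all 25 estimates were above 0, against 49.9% of all tested genes, with a median of 0.16. The smallest p of that list was that of Rpn2, a subunit of the oligosaccharyltransferase, at 697, 663 and 621 CPM in wild-type cells, against 751, 849 and 793 CPM in Zeb1 (+/-) cells (log2 fold change 0.27 ± 0.075, adjusted p = 0.153). Of 17 disulphide and redox genes, Pdia5 came nearest, at 23.2, 20.9 and 18.7 CPM in the wild-type libraries and 25.3, 32.2 and 30.4 CPM in the Zeb1 (+/-) libraries (log2 fold change 0.49 ± 0.11, adjusted p = 0.0988), with the groups apart. Of 21 tested folding helpers it was Mesdc2, a chaperone of LDL receptor family proteins, at 69.9 ± 3.59 and 82.6 ± 1.82 CPM, a log2 fold change of 0.24 ± 0.064 (SE; adjusted p = 0.145), and the list had a median of 0.17. Glycoprotein folding and trimming genes had a median of 0.085 over 11, with Uggt1, the folding sensor that reglucosylates glycoproteins, first at 0.11 ± 0.060 (SE; adjusted p = 0.432).

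The remaining lists lay closer to 0. The 23 tested genes of the integrated stress response and ATF4 targets had a median of 0.058, and the smallest p was that of the amino acid transporter gene Slc7a5, at 3.93 ± 0.249 and 5.85 ± 0.882 CPM, a log2 fold change of 0.59 ± 0.15 (SE; adjusted p = 0.137), with the groups apart. The stress-induced Chac1 was at 0 to 0.0305 CPM and Asns, the asparagine synthetase, at 0.167 to 0.685 CPM. The 19 degradation genes had a median of 0.050, with the ubiquitin-conjugating enzyme gene Ube2j1 first at −0.26 ± 0.10 (SE; adjusted p = 0.264). The 9 genes of the ATF6 family, its proteases and ER membrane regulators had a median of 0.036, with Bcap31, an ER membrane chaperone, first at 0.13 ± 0.063 (SE; adjusted p = 0.359). ER calcium handling had a median of −0.072 over 10 genes. Its smallest p was that of Orai1, the calcium channel of the plasma membrane that opens when ER stores empty, at 27.1, 25.3 and 23.1 CPM in wild-type and 18.1, 19.0 and 20.3 CPM in Zeb1 (+/-) macrophages (log2 fold change −0.39 ± 0.083, adjusted p = 0.0852). Its groups did not overlap.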

How the data were processed

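The authors deposited estimated counts per gene, as whole numbers in 1 column per library, and the submitters' processing notes name STAR, RSEM, edgeR and GRCm38 without versions or roles. The RNA was extracted with RNAzol and the libraries were made with a stranded mRNA kit, per the labels. Annotation release and strand setting of the counting are not given in the sources used here. Columns were matched by the identifiers in the sample descriptions, with 0 columns unmapped.

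All genes were modelled together with edgeR 4.0.16 (R 4.3.3), using filterByExpr (minimum count 10, minimum total 15), TMM scaling, and the quasi-likelihood test of genotype, with Benjamini-Hochberg adjustment over 12940 genes and a threshold of 0.05. The SE is the log2 fold change divided by the root of F, and 95% intervals use the t distribution. The fit was also run on simulated counts with no library-wide shifts, so that run says nothing on the pattern among these libraries. Exon lengths came from GENCODE M21 (99.3% of identifiers matched without version) and promoters from RefSeq. The edgeR p-values set the genotype difference against the spread between pools of 2 mice. That spread is moderated with information from all genes, with 5.17 prior and 4 residual degrees of freedom. The 33 genes and the lists were chosen with earlier results of these data known. Every member is named, and from each other list the gene with the smallest p if none passed; further genes are named as examples, chosen after their values were seen. Markers of 10 cell types or states were also read: T and NK cells summed to 1.13 to 2.37 CPM, neutrophils to 1.21 to 2.53, mast cells and eosinophils to 2.70 to 6.05, dendritic cells to 62.0 to 99.3, plasma cells to 34.3 to 57.7 and core macrophage genes to 42398 to 60540.1 CPM. Tnfrsf13b (20.3 to 26.2 CPM) and Sdc1 (9.29 to 18.1 CPM) held most of the plasma cell sum. The plasma cell markers Jchain and Tnfrsf17 were at most 0.320 and 0.284 CPM. Cd209a (53.8 to 86.9 CPM) held most of the dendritic cell sum. Alternatives used DESeq2 1.42.0 and limma 3.58.1.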

Additional observations from a re-analysis of the deposited data

How the results depend on the processing

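The 33 genes were refitted under 14 alternatives, 460 fits of 1 gene in all, since Trib3 was dropped for its low counts in 2 of them. The estimate kept its direction and its side of the threshold in 422, passed it in 7 more, lost it in 9 and changed sign in 22, the last in 12 genes whose main estimates did not pass. The number of members past the threshold was 2 in the fit reported. It was 6 with no filter on low counts (5 higher, 1 lower) and 4 with DESeq2 (3 and 1). With 1 library left out it was 0 to 3, with 0 when replicate 2 of either genotype was omitted. DESeq2 added Calr and Pdia6, and the fit with no filter added Hsp90b1, Calr, Pdia6 and Rcn1. Over all genes, 76 passed in the fit reported, 522 with no filter, 351 with DESeq2, 31 with that term, and with 1 library left out 5 (wild-type replicate 2), 11 (Zeb1 (+/-) replicate 2), 28 (Zeb1 (+/-) replicate 1), 61, 79 and 127 (Zeb1 (+/-) replicate 3). Of the other ER genes 0 passed in the fit reported, 5 with no filter and 3 with DESeq2. The median of the members was 0.12 to 0.22 with 1 library left out, and above 0 in each of the 14. It was 0.27 with the term that sets wild-type replicates 1 and 2 apart, which leaves 1 wild-type library as the control.

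The sample titles number the libraries of both genotypes as sets, called replicates here, and do not say whether same-numbered sets were paired. The deviations of same-numbered libraries from their genotype means correlated at −0.25, −0.035 and −0.17. Deviations from means of so few libraries cannot settle whether they were paired. With the replicate block 0 members and 15 of all genes passed, and the log2 fold changes of Rcn3 and Asph were −1.16 and 0.50 (adjusted p = 0.0545 and 0.119).

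Over the 6 omissions of a library the log2 fold change ran from −0.11 to 0.21 for Dnajb9, −0.087 to 0.43 for Manf, −0.28 to 0.24 for Ern1, −0.14 to 0.030 for Eif2ak3 and −0.13 to 0.020 for Atf4. It ran from −0.064 to 0.74 for Trib3, −0.37 to 0.16 for Herpud1, −0.10 to 0.15 for Edem1 and −0.050 to 0.067 for Sel1l. The sign also changed under the term that leaves wild-type replicate 3 as the only control. The estimate went to −0.11 for Ern1, 0.043 for Eif2ak3, 0.037 for Ddit3, 0.29 for Herpud1, 0.10 for Syvn1 and −0.044 for Rcn2. The cause was not tested. For Trib3, at 5 to 19 counts, depth limits any statement.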

Other observations

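Among the 135 tested ER genes outside the 33, 57 (42.2%) had wild-type replicate 1 and Zeb1 (+/-) replicate 3 as the highest library of their genotype, against 75.8% of the 33 and 15.6% of all tested genes. By list this was 16 of 25 translocon and glycan transfer genes, 12 of 19 degradation genes, 8 of 17 disulphide and redox genes, 4 of 9 genes of the ATF6 family and membrane regulators, 4 of 11 glycoprotein folding genes, 7 of 23 genes of the integrated stress response, 4 of 21 folding helpers and 2 of 10 calcium handling genes. The following 6 examples were chosen after their values were seen, among the genes with that order. The stress transcription factor gene Atf3 was at 73.1, 43.2 and 30.1 CPM in wild-type cells, against 28.3, 30.5 and 70.3 CPM in Zeb1 (+/-) cells. Sec61a1, the channel subunit through which proteins enter the ER, was at 262, 217 and 190.3 CPM in the wild-type libraries and 194, 214 and 265 CPM in the Zeb1 (+/-) libraries. The oxidoreductase gene Txndc11 was at 78.2, 59.5 and 49.6 CPM in wild-type and 45.1, 53.5 and 73.1 CPM in Zeb1 (+/-) macrophages, and Vimp, a selenoprotein of the degradation complex, at 62.2, 47.0 and 46.8 CPM in wild-type cells, against 45.1, 55.4 and 65.8 CPM in Zeb1 (+/-) cells. Creb3l2, which encodes a membrane-bound transcription factor related to ATF6, was at 59.5, 57.2 and 44.1 CPM in the wild-type libraries and 43.3, 45.1 and 59.7 CPM in the Zeb1 (+/-) libraries, and the translocon-associated Ssr2 at 70.5, 50.3 and 46.8 CPM in wild-type and 52.0, 59.4 and 68.0 CPM in Zeb1 (+/-) macrophages. In all 6 the ranges of the genotypes overlapped.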
